A study of Mus musculus with 8 samples.

Results

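The integrated stress response and serine synthesis genes examined here were Atf4, Atf5, Ddit3, Trib3, Chac1, Asns, Phgdh, Psat1, Shmt2 and Mthfd2. Every probe whose gene name, current or older, was 1 of these 10 symbols was taken, which gave 13 of the 41174 probes on the array: 3 for Phgdh, 2 for Trib3 and 1 for each of the other genes. All 13 passed the filter on dim probes. Each gene was represented by its brightest probe among the 18153 genes tested. Liver RNA had been measured on one-colour Agilent arrays in 4 groups of 2 arrays. KO mice carried an albumin promoter-driven Cre transgene (Albumin-Cre) and 2 loxP-flanked Dicer1 alleles (Dicer1loxP/loxP). Dicer1, which encodes the ribonuclease that makes mature microRNAs, is thereby deleted in hepatocytes. Which other liver cells keep it was not measured. WT mice were littermates with the same floxed alleles, for which the labels name no Cre. The groups were KO after ENU, WT after ENU, KO on vehicle and WT on vehicle. ENU is N-ethyl-N-nitrosourea, an alkylating mutagen, injected into the peritoneum once at 120 mg/kg in 2 ml/kg, with the liver examined on day 15. Vehicle was dimethylsulfoxide in the same volume, with no day given. All were C57BL/6 mice aged 6 months.

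The integrated stress response is the pathway by which kinases that sense amino acid shortage, unfolded protein in the endoplasmic reticulum, lack of haem or double-stranded RNA phosphorylate the translation factor eIF2α, which slows protein synthesis as a whole and favours translation of a few mRNAs, among them those of the transcription factors ATF4, ATF5 and CHOP (the product of Ddit3). ATF4 then switches on genes for amino acid synthesis and uptake, including asparagine synthetase, the serine synthesis enzymes and the mitochondrial enzymes that turn serine into glycine and one-carbon units. Because ATF4 is controlled largely by translation, its mRNA level does not report the protein, which these arrays did not measure.

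Arrays a and b of a group differed by about as much as repeated spots of a probe do, and were counted as 1 RNA sample. Over 152 probes spotted at least 5 times, the SD of their standardised difference was 1.02 to 1.12 within groups, where noise alone gives 1.15, and 29.2 to 75.1 between groups. The median absolute standardised difference was 0.678 in KO after ENU, 0.654 in WT after ENU, 0.909 in KO on vehicle and 0.737 in WT on vehicle, so the last 2 were above the 0.706 that noise alone gives, and 12.2 to 28.6 between groups. A comparison of 1 group with another thus sets 1 RNA sample against 1 and has no replicate check. The test used was a limma fit with genotype and treatment as terms over the 4 RNA samples, with Benjamini-Hochberg adjustment over all 18153 genes. Rose and fell are used only for its calls at an adjusted p under 0.05. How many mice went into an RNA sample is not given in the labels. No RNA sample shares both genotype and treatment with another, so the only residual of the fit is the genotype by treatment gap. The p-values and SEs rest on that gap, moderated across genes by limma, and not on a spread between mice. Treatment followed the slide, with the ENU arrays on slide 1 and the vehicle arrays on slide 2, and the effects of slide and treatment cannot be told apart. The KO arrays lay at positions 1 and 2 and the WT arrays at positions 3 and 4 of each slide, and the same holds for genotype and position. Of 2 Dicer1 probes, the brighter was 1.19-fold lower in KO than in WT after ENU and 1.41-fold lower on vehicle, and the other 2.85-fold and 5.51-fold lower. The mice are labelled female, but 4 of 4 Y-linked genes looked up were well above background on all 8 arrays. Hepatocyte markers were well above background in every group, 9 of 9.

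ATF4 binds a composite C/EBP-ATF response element, so the promoters of the genes that separate the groups most and of Trib3 are printed here with matches to its core in capitals. The letters searched were TGATGNAA, on both strands, in the 250 bases before and 50 after each RefSeq start (GRCm38.p6). Of 12 promoters of the 10 genes, 3 held a match, against 3.97% of 32851 promoters in the same table. Asns, Chac1 and Trib3 held 1 match each. Counted from its first letter as printed, the Asns match lay 23 bases before the start on the gene's own strand, the Chac1 match 193 bases before the start on the opposite strand and the Trib3 match 14 bases after the start on the opposite strand. Phgdh, both Psat1 promoters, Atf4, both Atf5 promoters, Ddit3, Shmt2 and Mthfd2 had none in this window. A match is a string of letters and not a shown binding site. The Asns promoter is chr6:7693160-7693459 (minus strand), that of Chac1 chr2:119350992-119351291 (plus strand), that of Trib3 chr2:152344011-152344310 (minus strand), that of Phgdh chr3:98339920-98340219 (minus strand) and the first of Psat1 chr19:15925010-15925309 (minus strand).
Asns: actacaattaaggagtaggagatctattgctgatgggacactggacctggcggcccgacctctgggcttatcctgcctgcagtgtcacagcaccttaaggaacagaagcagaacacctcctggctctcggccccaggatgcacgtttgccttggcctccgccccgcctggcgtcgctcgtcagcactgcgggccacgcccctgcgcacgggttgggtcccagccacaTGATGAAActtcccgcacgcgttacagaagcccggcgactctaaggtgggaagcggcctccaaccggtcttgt
Chac1: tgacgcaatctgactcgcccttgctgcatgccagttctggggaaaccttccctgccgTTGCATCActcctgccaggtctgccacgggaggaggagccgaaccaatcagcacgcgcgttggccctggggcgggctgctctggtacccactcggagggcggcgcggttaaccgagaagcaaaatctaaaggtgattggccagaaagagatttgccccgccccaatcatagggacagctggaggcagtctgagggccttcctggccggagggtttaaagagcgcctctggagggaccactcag
Trib3: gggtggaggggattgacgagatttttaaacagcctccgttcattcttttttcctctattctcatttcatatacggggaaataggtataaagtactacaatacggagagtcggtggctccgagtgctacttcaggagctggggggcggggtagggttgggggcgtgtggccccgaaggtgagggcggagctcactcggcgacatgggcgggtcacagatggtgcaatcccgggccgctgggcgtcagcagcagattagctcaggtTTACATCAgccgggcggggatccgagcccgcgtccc
Phgdh: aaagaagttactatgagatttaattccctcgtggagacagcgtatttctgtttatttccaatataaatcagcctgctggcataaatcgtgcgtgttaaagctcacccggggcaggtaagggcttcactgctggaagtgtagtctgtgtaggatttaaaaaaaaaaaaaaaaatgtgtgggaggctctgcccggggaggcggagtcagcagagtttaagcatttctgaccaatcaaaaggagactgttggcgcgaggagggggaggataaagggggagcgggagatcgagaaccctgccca
Psat1: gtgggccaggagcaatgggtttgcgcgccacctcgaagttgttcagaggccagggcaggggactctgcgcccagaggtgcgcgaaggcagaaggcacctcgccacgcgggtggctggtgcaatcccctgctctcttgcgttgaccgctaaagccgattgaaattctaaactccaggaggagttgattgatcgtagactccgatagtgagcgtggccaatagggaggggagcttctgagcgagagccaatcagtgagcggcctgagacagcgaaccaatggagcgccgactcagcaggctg

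The 10 genes did not move as 1 block between KO and WT liver. Over both treatments Psat1 and Phgdh, the enzymes of the first steps of serine synthesis, and Asns, which makes asparagine, rose in KO. Chac1, Shmt2 and Atf4 itself fell, and Atf5, Ddit3, Trib3 and Mthfd2 did not pass the test. That is 3 of 10 genes up and 3 down, beside 16.9% of all genes up and 15.3% down. Without adjustment, 7 of the 10 had a limma p under 0.05, beside 48.4% of all genes. The median difference over the 10 genes, KO minus WT, was -0.31 on the log2 scale, and over all genes -0.12. In these bulk samples fewer cells of a type and less RNA per cell cannot be told apart.

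**Figure D1:**
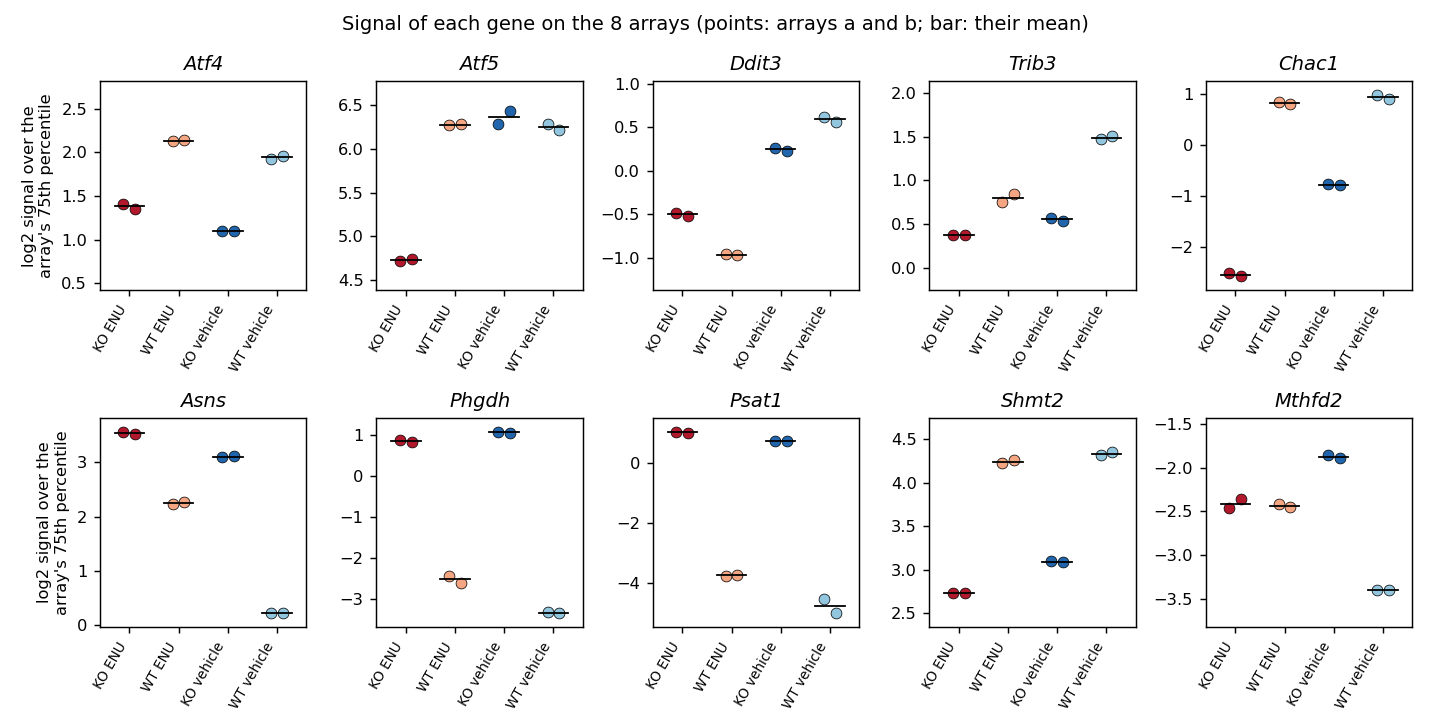
Signal of the 10 genes (brightest probe) on each of the 8 arrays, as log2 over the array's 75th percentile, with points for arrays a and b and a bar for their mean. Phgdh and Psat1 sit between 0.71 and 1.07 on all KO arrays and at or below -2.44 on all WT arrays, while Shmt2 and Atf4 are lower on every KO array than on every WT array.

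**Figure D2:**
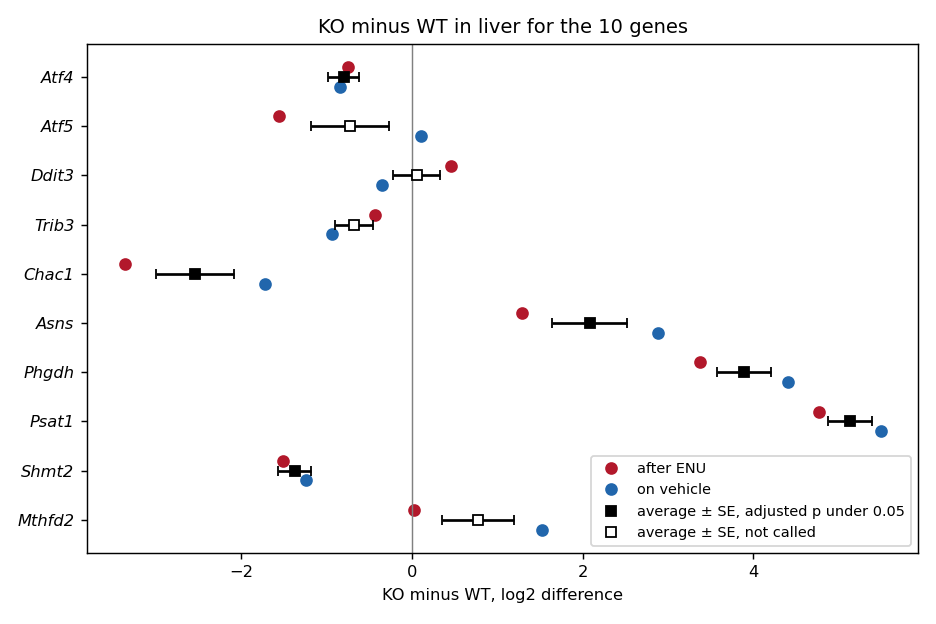
KO minus WT log2 difference of each gene after ENU (red) and on vehicle (blue), with the limma average over both ± SE as a square, filled where the adjusted p is under 0.05. Psat1 (5.13), Phgdh (3.89) and Asns (2.08) lie to the right of 0, and Chac1 (-2.54), Shmt2 (-1.37) and Atf4 (-0.80) to the left.

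Phgdh encodes phosphoglycerate dehydrogenase, which takes a glycolytic intermediate into serine synthesis. Values here are log2 signal over the array's 75th percentile, on which 0 is that percentile and 1 unit is a 2-fold difference. The Phgdh probe used (A_51_P408732, chr3:98184399-98184458, mm7) read 0.86 and 0.83 in KO after ENU, against -2.44 and -2.62 in WT after ENU. On vehicle it read 1.07 and 1.05 in KO, against -3.32 and -3.35 in WT. All 4 KO arrays lay far above all 4 WT arrays, with no overlap. The fold of KO over WT for Phgdh was 10.4 after ENU and 21.1 on vehicle. In the limma fit it rose by 3.89 ± 0.32 (SE, 2 KO and 2 WT RNA samples), with an adjusted p of 0.0104. Of the other probes, A_51_P408729 (chr3:98184395-98184425, mm7), which overlaps the first and is therefore no independent check, gave 3.65 ± 0.29 with a limma adjusted p of 0.00832 over all probes. A_52_P661606 (chr3:98185627-98186335, mm7), which lies apart from both, was not well above background on any WT array and passed the filter through KO alone, so it gives only a bound, at least 7.04-fold higher in KO after ENU and at least 3.12-fold higher on vehicle.

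Psat1 encodes phosphoserine aminotransferase, the second step of the same pathway. Its probe (A_51_P317427, chr19:15606408-15606467, mm7) read 1.03 and 0.99 in KO after ENU, against -3.77 and -3.75 in WT after ENU. On vehicle the values were 0.71 and 0.73 in KO, against -4.53 and -5.01 in WT. The KO arrays were all near each other and the WT arrays all far lower, and in WT on vehicle the probe was not well above background. After ENU, Psat1 was 27.2-fold higher in KO. On vehicle the measured means gave 44.9-fold, but the WT level there has only a bound, which gives at least 29.3-fold in the processed signal. Such a bound sets the KO mean against a floor, which on each array is the dimmest signal that still counted as well above background, or the probe's own signal where that was higher. Psat1 rose by 5.13 ± 0.26 (SE, 2 KO and 2 WT RNA samples) with a limma adjusted p of 0.00972. With normexp background correction the sizes shrank, to 3.30 for Psat1 (9.82-fold) and 2.90 for Phgdh (7.45-fold), with both calls kept. On vehicle Psat1 was then 9.16-fold higher in KO, so the bound of 29.3-fold holds for the processed signal only. Psph, which encodes the last enzyme of the pathway, averaged 0.71 in KO and 0.54 in WT after ENU, and 0.50 in KO and -0.05 in WT on vehicle. Its average difference was 0.37 ± 0.20, with a limma adjusted p of 0.231, and did not pass.

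Asns encodes asparagine synthetase, an ATF4 target whose promoter holds 1 of the 3 matches. Its probe (A_51_P125745, chr6:7628080-7628139, mm7) read 3.56 and 3.52 in KO after ENU, against 2.24 and 2.27 in WT after ENU. In vehicle-treated liver it read 3.09 and 3.11 in KO, against 0.23 and 0.22 in WT. Each KO array was above each WT array, and WT on vehicle stood lowest by a wide margin. The fold of KO over WT for Asns was 2.44 after ENU and 7.34 on vehicle, and it rose by 2.08 ± 0.44 (SE, 2 KO and 2 WT RNA samples), with a limma adjusted p of 0.0375. Its call was lost, with adjusted p-values of 0.0526 to 0.0605, when any 1 of KO ENU b, WT ENU a, WT ENU b, KO vehicle b, WT vehicle a or WT vehicle b was left out, although the difference stayed between 2.07 and 2.09.

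Chac1, whose product breaks down glutathione and which is a target of ATF4 in stressed cells, went the other way. Its probe (A_51_P134812, chr2:119095103-119095162, mm7) read -2.51 and -2.58 in KO after ENU, against 0.83 and 0.80 in WT after ENU. The vehicle arrays read -0.78 and -0.80 in KO, against 0.97 and 0.89 in WT. The KO arrays lay below the WT arrays in both treatments, and KO after ENU was the lowest group. Chac1 was 10.3-fold lower in KO after ENU and 3.29-fold lower on vehicle. It fell by 2.54 on the log2 scale (SE 0.45, 2 KO and 2 WT RNA samples), with a limma adjusted p of 0.0271. Asns and Chac1, whose promoters both hold a match, thus lay on opposite sides.

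Of the transcription factor genes, Atf4 fell in KO, and Atf5 and Ddit3 did not pass the test. Atf4 (A_52_P139727, chr15:80341130-80341189, mm7) read 1.41 and 1.35 in KO after ENU, against 2.13 and 2.14 in WT after ENU. On vehicle it read 1.09 and 1.10 in KO, against 1.93 and 1.96 in WT. KO was the lower group in both treatments without overlap, 1.69-fold after ENU and 1.80-fold on vehicle. Atf4 fell by 0.80 on the log2 scale (SE 0.18, 2 KO and 2 WT RNA samples), with a limma adjusted p of 0.0429. This call lay close to the threshold. It was lost with quantile normalization (-0.66, adjusted p of 0.0691), with no filter on dim probes (0.0642), and on leaving out any 1 of KO ENU b, WT ENU a, WT ENU b, KO vehicle b, WT vehicle a or WT vehicle b (0.0532 to 0.0615, with a difference of -0.81 to -0.78).

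Atf5, a related factor that is abundant in liver, differed with treatment. Its probe (A_51_P269216, chr7:40986870-40986929, mm7) read 4.72 and 4.74 in KO after ENU, against 6.28 and 6.29 in WT after ENU. In vehicle-treated liver the values were 6.29 and 6.44 in KO, against 6.29 and 6.22 in WT. On this scale only KO after ENU stood apart from the other 3 groups, and on vehicle the KO and WT arrays overlapped. Atf5 was 2.94-fold lower in KO after ENU and 1.08-fold higher on vehicle. This depended on the scaling: with quantile normalization KO minus WT was -0.93 after ENU and 0.85 on vehicle, as log2 differences. The limma average of -0.72 ± 0.46 (SE, 2 KO and 2 WT RNA samples) had an adjusted p of 0.278.

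Ddit3 encodes CHOP, the factor of the pathway linked to cell death. Its probe (A_52_P533146, chr10:126796858-126797161, mm7) read -0.48 and -0.51 in KO after ENU, against -0.95 and -0.96 in WT after ENU. On vehicle the values were 0.26 and 0.23 in KO, against 0.62 and 0.56 in WT. KO was thus the higher group after ENU and the lower one on vehicle, with no array overlapping in either. The limma average was 0.06 ± 0.27 (SE, 2 KO and 2 WT RNA samples), with an adjusted p of 0.884.

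Trib3 encodes a pseudokinase that ATF4 and CHOP induce and that restrains them. Its brighter probe (A_51_P331570, chr2:152078476-152078535, mm7) read 0.37 and 0.37 in KO after ENU, against 0.75 and 0.85 in WT after ENU. The vehicle arrays read 0.57 and 0.53 in KO, against 1.47 and 1.50 in WT. KO was lower in both treatments, 1.34-fold after ENU and 1.91-fold on vehicle, with no overlap. The limma average was -0.68 ± 0.22 (SE, 2 KO and 2 WT RNA samples), with an adjusted p of 0.0864, so it did not pass. With each array centred on its median, Trib3 did pass (-0.88, limma adjusted p of 0.0442). The dimmer probe (A_52_P600274, chr2:152079146-152079205, mm7) gave -0.51 ± 0.26, with a limma adjusted p of 0.197 over all probes.

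Of the mitochondrial enzymes that use serine or its one-carbon unit, Shmt2 fell and Mthfd2 did not pass the test. Shmt2 encodes the mitochondrial serine hydroxymethyltransferase, which turns serine into glycine and loads a one-carbon unit on folate. Its probe (A_51_P313761, chr10:127019144-127019203, mm7) read 2.74 and 2.73 in KO after ENU, against 4.22 and 4.26 in WT after ENU. In vehicle-treated liver it read 3.10 and 3.09 in KO, against 4.31 and 4.35 in WT. The KO arrays were lower than the WT arrays in both treatments without overlap. Shmt2 was 2.84-fold lower in KO after ENU and 2.36-fold lower on vehicle, and it fell by 1.37 on the log2 scale (SE 0.19, 2 KO and 2 WT RNA samples), with a limma adjusted p of 0.0187.

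Mthfd2 encodes the mitochondrial enzyme that next oxidises that one-carbon unit and is known for its expression in dividing cells. Its probe (A_52_P184149, chr6:83331895-83331954, mm7) read -2.46 and -2.36 in KO after ENU, against -2.42 and -2.45 in WT after ENU. On vehicle it read -1.85 and -1.89 in KO, against -3.40 and -3.40 in WT. After ENU the arrays of both genotypes overlapped, and on vehicle KO was 2.88-fold higher (1.57-fold with normexp). The limma average of 0.77 ± 0.42 (SE, 2 KO and 2 WT RNA samples) had an adjusted p of 0.22.

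Within each treatment, where there is no test, the direction of KO against WT was the same after ENU and on vehicle for 8 of the 10 genes, beside 82.5% of all genes. Atf5 and Ddit3 were the others, and with median centring Atf5 too had the same direction (-0.11 on vehicle). Psat1, Phgdh and Asns were at least 2-fold higher in KO in both treatments, and Chac1 and Shmt2 at least 2-fold lower in both, beside 12.8% and 7.54% of all genes. After ENU, 3 genes were at least 2-fold higher in KO (Asns, Psat1 and Phgdh) and 3 at least 2-fold lower (Atf5, Chac1 and Shmt2), beside 16.3% and 14.2% of all genes. On vehicle, 4 were at least 2-fold higher (the same 3 and Mthfd2) and 2 lower (Chac1 and Shmt2), beside 17.3% and 11.1%. Some of these memberships depended on the setting. With normexp Mthfd2 on vehicle was 1.57-fold higher. Across the alternatives the log2 difference shrank to -0.83 for Shmt2 on vehicle and -0.93 for Atf5 after ENU. On vehicle it grew to -1.16 for Trib3 and -1.07 for Atf4. The KO and WT arrays did not overlap for 9 genes in each treatment, beside 90.6% of all genes after ENU and 91.1% on vehicle, so a lack of overlap is the usual case on these arrays.

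The question of the ENU comparison is what a single dose left behind in liver 15 days later. None of the 10 genes passed the test over both genotypes, in either direction. Nor did any of the 18153 genes (0% higher and 0% lower in limma), although 22% of them had an unadjusted p under 0.05. Among the 10, Ddit3 was the 1 gene with such a p. Its values after ENU, given above, lay below those on vehicle in both genotypes without overlap, 1.67-fold in KO and 2.93-fold in WT. The average difference, ENU minus vehicle, was -1.15 ± 0.27 (SE, 2 ENU and 2 vehicle RNA samples), with an unadjusted limma p of 0.0143 and an adjusted p of 0.17. Asns came next, with 1.23 ± 0.44, an unadjusted p of 0.0503 and an adjusted p of 0.227.

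Within genotypes, where there is no test, the genes beyond 2-fold were not shared. In KO, Atf5 was 3.11-fold and Chac1 3.39-fold lower after ENU, and no gene was 2-fold higher, beside 5.48% of all genes lower and 4.32% higher. In WT, Asns was 4.08-fold higher after ENU and Ddit3 was 2.93-fold lower. Psat1 in WT was 2.02-fold higher by the measured means, but its level on vehicle has only a bound, which leaves at least 1.31-fold in the processed signal. With normexp no increase of Psat1 in WT remained (-0.03 on the log2 scale). By the measured means, 2 genes were at least 2-fold higher and 1 lower in WT, beside 7.13% and 5.58% of all genes. ENU and vehicle arrays did not overlap for all 10 genes in KO and for 9 in WT (all but Atf5), beside 87.2% and 83.2% of all genes.

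**Figure D3:**
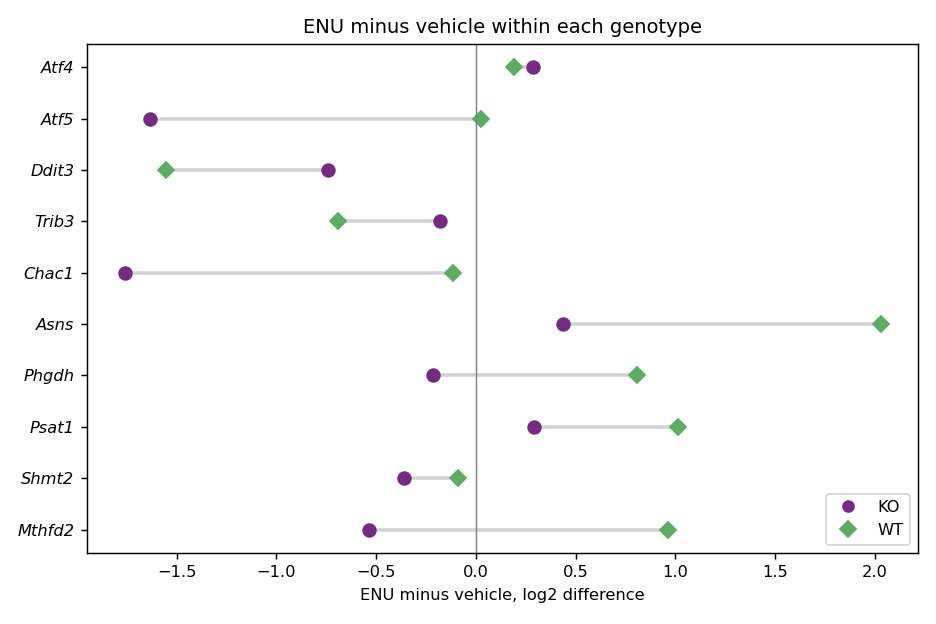
ENU minus vehicle log2 difference of each gene in KO (circles) and in WT (diamonds), 1 RNA sample against 1 in each. The longest lines, which join the genotypes, belong to Atf5 (-1.64 in KO, 0.03 in WT), Chac1 (-1.76 in KO, -0.12 in WT) and Asns (0.44 in KO, 2.03 in WT).

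For 5 of the 10 genes the ENU difference in KO and that in WT lay at least 1 log2 unit apart, beside 10.8% of all genes, counted in either direction. With normexp the count was 3 (Asns, Atf5 and Chac1), with a gap of -0.48 for Phgdh and -0.77 for Mthfd2, and it was 4, without Phgdh, with the mean of a gene's probes, median centring, quantile normalization or without WT ENU a. The KO minus WT gap was -1.66 for Atf5, -1.64 for Chac1, -1.59 for Asns, -1.50 for Mthfd2 and -1.02 for Phgdh. For Asns the gap came with a high level already present in KO on vehicle (3.09 and 3.11), so that the genotypes were nearer each other after ENU. For Atf5 and Chac1 the WT difference was small (0.03 and -0.12), and the KO arrays after ENU lay well below those on vehicle (-1.64 and -1.76). For the other genes the gap was -0.72 for Psat1, -0.27 for Shmt2, 0.09 for Atf4, 0.51 for Trib3 and 0.81 for Ddit3. Phgdh and Mthfd2 had ENU differences of opposite sign in KO and WT with no array overlapping, beside 17% of all genes. For Phgdh this rests on the probe used. The separate probe A_52_P661606, dim in WT, read 0.56 higher after ENU in KO. The gap between the genotypes is the only residual of the limma fit, so the design allows no test of it.

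The wider pathway also held genes that rose in KO and genes that fell. Among all genes tested 16.9% rose and 15.3% fell, the shares to set beside each list count below, markers included. Among genes of the eIF2α kinases, phosphatase subunits and eIF2B, 1 of 18 rose and 2 fell, with a median KO minus WT of -0.21. With normexp 2 rose, and 4 fell with normexp, median centring or the filter on all 8 arrays. The number that fell was 1 with quantile normalization and with the mean of a gene's probes. Eif2ak3, the kinase PERK that senses unfolded protein in the endoplasmic reticulum, rose by 1.15 ± 0.20 (limma adjusted p of 0.0266). Eif2ak1, the haem-regulated kinase, fell by 1.03, and Dnajc3, an inhibitor of PERK, fell by 1.03. Eif2ak4, the kinase GCN2 that senses uncharged tRNA, differed by 0.12 and Ppp1r15a, the inducible phosphatase subunit, by -0.25, and neither passed.

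Of 32 other reported ATF4 or CHOP target genes that were tested, 14 rose and 2 fell, with a median of 0.53. With normexp 9 rose and 3 fell, with a median of 0.13, and where a probe had to be well above background on all 8 arrays 8 rose, with a median of 0.05. Median centring called 4 lower. Among the genes well above background in both genotypes were Vldlr, a lipoprotein receptor (3.20), Slc6a9, a glycine transporter that fell (-2.96), and Atf3, a stress-induced transcription factor (2.49). Of the 14, 6 were not well above background in at least 1 WT group, so their size is uncertain. Among them, Slc7a3, Stc2, Tnfrsf10b, Pycr1 and Slc7a5 were not well above background in either WT group. They passed the filter through KO alone, which favoured a rise, so they lend the count no support. Slc7a3, a cationic amino acid transporter, was at least 1.33-fold higher in KO after ENU and at least 1.16-fold higher on vehicle. Sesn2, an inhibitor of mTORC1, differed by 1.05, Ddit4, another, by 0.56 and Fgf21, a liver hormone, by -0.95, and none of these passed. The cytosolic aminoacyl-tRNA synthetases, many of them ATF4 targets in cultured cells, held 0 genes of 20 that rose in limma and 2 that fell (Tars by 1.38, Dars by 0.92), with a median of -0.21. The number that fell was 6 with normexp, with median centring and with the filter on all 8 arrays, 1 with quantile normalization, with no filter, without WT ENU a or without WT ENU b, and 0 without KO ENU b. At an unadjusted p under 0.05, 0 were higher and 6 lower.

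Of 18 other serine and glycine genes, 11 fell and 1 rose, with a median of -0.97. With quantile normalization 5 fell, with a median of -0.54. The riser was Slc1a4, a transporter of serine and other neutral amino acids (2.47 ± 0.52, limma adjusted p of 0.0365), and its call was lost without KO ENU b, KO vehicle b or any 1 of the 4 WT arrays, leaving 0 genes that rose. Gnmt, the glycine methyltransferase abundant in liver, fell by 1.64, Sardh by 1.45 and Dmgdh by 1.37, the last pair being mitochondrial enzymes that break down methylated forms of glycine. Shmt1, the cytosolic counterpart of Shmt2, fell by 1.30. In the folate and methionine cycle 2 of 24 rose and 6 fell, with a median of -0.48. With quantile normalization 2 fell (median -0.17), with normexp or the filter on all 8 arrays 8, and with median centring 9. The number that rose was 1 without KO ENU b and 3 with normexp. Mthfd1l, which completes the mitochondrial formate route after Mthfd2, rose by 2.66 ± 0.19 (limma adjusted p of 0.01), while Ahcy fell by 1.84, Slc46a1, a folate transporter, by 1.58, Aldh1l1, which oxidises formyl-folate, by 1.51 and Mthfd1, the cytosolic enzyme, by 0.78.

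No gene of the other protein-folding stress branches passed the limma test for a rise. Of 28 genes of the XBP1 and ATF6 branches and the endoplasmic reticulum chaperones, 0 rose and 12 fell, with a median of -0.78, and at an unadjusted p under 0.05, 0 were higher and 21 lower. Those that fell numbered 4 with quantile normalization (median -0.36), 7 with no filter on dim probes, 19 with normexp, 20 with median centring and 21 where a probe had to be well above background on all 8 arrays. Ero1b, an oxidase for disulfide formation, fell by 1.92, Derl3 by 1.78, Sdf2l1 by 1.55 and Hyou1, a chaperone, by 1.27. Hspa5, the chaperone BiP, differed by -0.78 and Xbp1 by -0.67, and neither passed. Of 12 genes of the mitochondrial unfolded protein response, 0 rose and 7 fell, with a median of -0.79 (0 higher and 11 lower at an unadjusted p under 0.05). This count depended on the setting. It was 0 with quantile normalization (median -0.38), 3 with no filter on dim probes, 11 with median centring, and 2 to 4 without KO ENU b, KO vehicle b, WT ENU a, WT ENU b, WT vehicle a or WT vehicle b. Among those that fell were the protease subunits Clpx (-1.34) and Clpp (-1.02) and the chaperones Trap1 (-1.08) and Dnaja3 (-0.91). For ENU, 0 of the 158 genes that the 10 genes and these lists hold passed the limma test, and 39 (24.7%) had an unadjusted p under 0.05, beside the 22% of all genes.

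**Figure D4:**
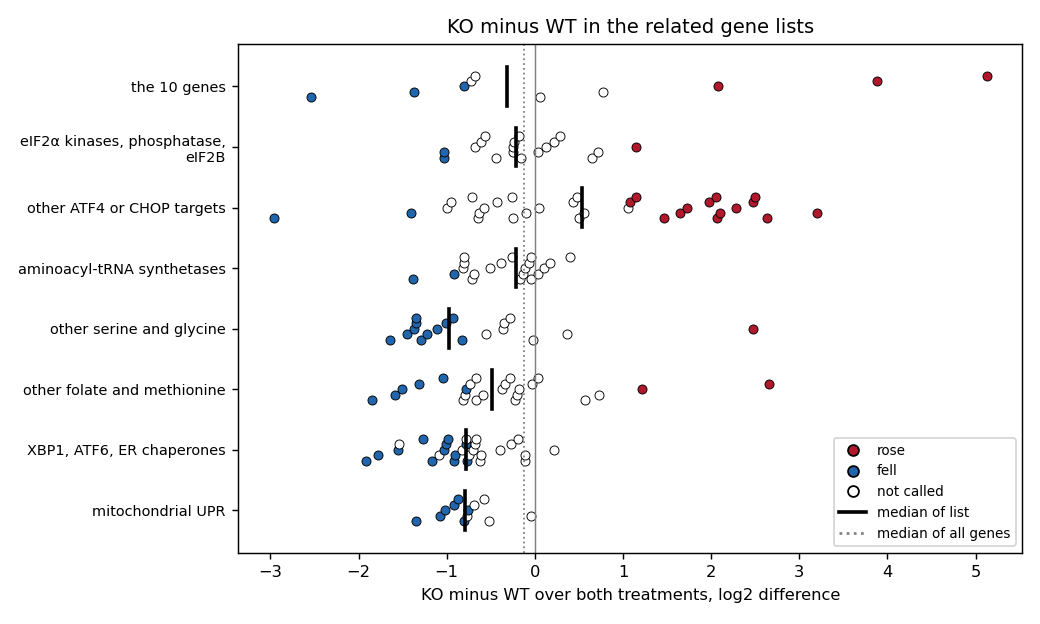
KO minus WT log2 difference over both treatments of each tested gene in the 10 genes and 7 related lists, red where it rose, blue where it fell and white where it was not called, with the list's median as a bar and the median of all genes (-0.12) as a dotted line. The other ATF4 or CHOP targets have a median of 0.53, while the serine and glycine, chaperone and mitochondrial lists have medians from -0.97 to -0.78.

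Markers of other cells and of division moved with genotype too. Of 12 proliferation genes, 10 rose in KO and 0 fell, with a median of 2.81, and at an unadjusted p under 0.05 all 12 were higher. The number that rose was 12 with normexp (median 1.82), 7 with the filter on all 8 arrays, and 8 without KO ENU b or without WT ENU b. Of the 10, 3 were not well above background in at least 1 WT group. The 10 included Ccnb1 (3.56 after ENU) and Cdk1 (3.57 after ENU), neither well above background in WT on vehicle, and Aurka (3.27) and Ccna2 (3.27), which drive mitosis. All 8 cholangiocyte and progenitor markers rose, with a mean level of 1.87 in KO and -1.01 in WT after ENU, and 1.42 in KO and -1.63 in WT on vehicle. In WT, 7 of these 8 were well above background after ENU and 6 on vehicle. Epcam was dim in both WT groups and passed the filter through KO alone, which favoured a rise. All 8 neutrophil and myeloid progenitor markers rose, with means of 0.61 and -2.98 in KO and WT after ENU, and 0.28 and -2.83 in KO and WT on vehicle. In WT, 5 of those 8 were well above background. Camp, Ngp and Elane were dim in both WT groups and passed the filter through KO alone, so their calls lend no support. The WT means include such dim values. Of 10 macrophage markers 7 rose, of 10 stellate and myofibroblast markers 4 and of 6 B and plasma cell markers 3, and none of these fell. Of 7 T and NK cell markers 3 rose and 2 fell, and of 10 endothelial markers 0 rose and 1 fell (1 higher and 4 lower at an unadjusted p under 0.05). Of 9 hepatocyte markers 0 rose and 6 fell (9 lower and 0 higher at an unadjusted p under 0.05), with means of 5.52 in KO and 6.53 in WT after ENU, and 5.69 in KO and 6.87 in WT on vehicle. The part of these shifts in the differences of the 10 genes was not tested.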

How the data were processed

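Liver RNA from 4 groups was labelled with Cy3 and measured on 8 one-colour arrays, per the labels' protocols. The scans were read with Agilent Feature Extraction, version 10.7.1.1 per the file headers and 10.5.1 per the submitters' processing notes. The deposited intensity used was the authors' processed signal, from which background had been removed by spatial detrending, per the file headers.

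Here, log2 of that signal was scaled to the 75th percentile of its array. Spots marked as controls or outliers were dropped, and repeated spots were averaged. A probe had to be well above background on both arrays of at least 1 group, which left 27231 of 41174 probes. A gene was represented by its brightest probe. The share of spots well above background ran from 54.7% to 69.3% over the arrays, with none saturated. The number of arrays limits the precision. Probe names were updated through the RefSeq table of GRCm38.p6: 22951 probes were named through an accession, 6659 through a current symbol and 3109 through a synonym, while 8455 stayed as deposited. The coordinates of probes refer to mm7, and their place in exons or UTRs was not looked up. Promoters are RefSeq's, on GRCm38.p6.

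Arrays a and b were averaged, and genotype and treatment fitted over 4 RNA samples with 1 residual degree of freedom by limma 3.58.1 in R 4.3.3 (lmFit and eBayes, Benjamini-Hochberg over 18153 genes, or over all probes passing the filter for other probes of a gene). Comparisons of 1 RNA sample with 1 have no test, and a 2-fold difference serves to describe them. Alternatives were normexp background correction, quantile normalization, median centring, 2 other filters, the mean of a gene's probes and leaving out each array.

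The 10 genes and the other lists were chosen with earlier results of these data known. In each list the genes named are up to 4 with the largest KO minus WT difference among those that passed, plus Psph, Shmt1, Eif2ak3, Eif2ak4, Hspa5, Xbp1, Ppp1r15a, Mthfd1l, Mthfd1, Fgf21, Atf3, Sesn2 and Ddit4. Named besides are genes that rose and were not well above background in either WT group.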

Additional observations from a re-analysis of the deposited data

Results flagged for a closer look

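Phgdh and Mthfd2 gave opposite ENU differences in the genotypes, with no array overlapping. For Phgdh, ENU minus vehicle was -0.21 in KO and 0.81 in WT on the log2 scale. With the mean of its probes the Phgdh value in KO was 0.07, and its separate probe A_52_P661606 read 0.56 in KO and 0.66 in WT, where it was not well above background. For Mthfd2 it was -0.54 in KO and 0.96 in WT. Such opposite responses without overlap occurred in 17% of all genes, and neither difference was tested, since the design holds no replicate of a group.

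Ddit3 gave opposite genotype differences in the treatments, with KO minus WT of 0.46 after ENU and -0.35 on vehicle. No array overlapped in either treatment, and this difference was not tested.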

How the results depend on the processing

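Across 14 alternatives, Chac1, Phgdh and Shmt2 kept their KO against WT direction and limma call, and Psat1 did so in the 13 that tested it (it is lost where a probe must be well above background on all 8 arrays). The number of the 10 genes called stayed at 2 to 3 higher and 2 to 4 lower in KO, and at 0 for ENU. Directions turned for Ddit3, KO minus WT, with median centring (-0.15), and with normexp for ENU minus vehicle in Phgdh (-0.0088), Mthfd2 (-0.0058) and Psat1 in WT (-0.031). Among the single comparisons, signs also turned for Atf5 with median centring (KO minus WT on vehicle -0.11, ENU minus vehicle in WT -0.02) and without WT vehicle b (ENU minus vehicle in WT -0.0048), and with the mean of a gene's probes for ENU minus vehicle in KO of Phgdh (0.07) and Trib3 (0.02). The median of the eIF2α kinase list became 0.017 with quantile normalization. The cause was not tested. Centring on the median moved the median KO minus WT of all genes to -0.33, and the split of calls to 2759 higher and 4931 lower, against 3066 and 2782. Relative to the median of all genes, Atf4 differed by -0.68, Shmt2 by -1.25 and Asns by 2.20, and with quantile normalization by -0.59, -0.91 and 2.40. Normexp gave 2385 higher and 4104 lower, and requiring all 8 arrays well above background gave 2167 and 3740. Leaving out KO ENU b or WT ENU b gave 1652 and 1721 lower calls. For ENU, normexp called 3 genes lower and the filter on all 8 arrays 7, none among the 10 genes. Atf5, KO minus WT, ranged from -0.93 to -0.04 over all alternatives, and Mthfd2, KO minus WT after ENU, changed sign in 4 (normexp, quantile normalization, median centring and without KO ENU b, -0.16 to -0.03). The larger moves in the counts of the related pathway lists are given beside them. Dim probes limit the WT levels of Psat1. No paired analysis was possible because arrays a and b were averaged into 1 sample per group.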

Other observations

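Outside the 10 gene symbols, 2 probes carry only a clone accession that the files describe as a 3-phosphoglycerate dehydrogenase transcript, and both were picked out after their values were seen. A_52_P94150 averaged -1.68 in KO and -4.84 in WT after ENU, and -1.41 in KO and -5.81 in WT on vehicle. It was well above background on the 4 KO arrays and on no WT array, so it gives only a bound, at least 7.65-fold higher in KO after ENU and at least 6.67-fold higher on vehicle. A_51_P451228 was well above background on 0 arrays, and no difference is given.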
